A study of Homo sapiens with 8 samples.

Results

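The genes described here are the receptors for BAFF and APRIL, TNFRSF17 (BCMA), TNFRSF13B (TACI) and TNFRSF13C (BAFF receptor), with the TNF family ligands CD70, LTA, LTB and TNF. They were chosen by symbol, with earlier results of these data known. They are the 7 genes of these names among 25377 in the RNA table and the 23 peaks annotated to them among 70312 in the ATAC table. The samples were Raji cells, an established Burkitt lymphoma B cell line that carries Epstein-Barr virus. Wild-type Raji cells were compared with RGS-SE knockout Raji cells, in which CRISPR/Cas9 with a pair of guide plasmids was used to delete a super-enhancer between RGS1 and RGS13, labelled as chromosome 1 from 192515157 to 192741754 (hg38). The knockout cells were electroporated, selected with puromycin and taken as single clones after PCR and Sanger sequencing. The labels name no such handling for the wild-type cells and give no number of clones, so the deletion, the clone and the selection cannot be told apart. Of 18 ATAC peaks in the labelled interval, 1 had 0 reads in both knockout libraries, and the other 17 kept between 28 and 982 reads in each. RGS1, which lies in the interval, had 471 and 385 normalised reads in wild type and 4840 and 4805 in the knockout, and RGS13 was at -0.20 in the authors' deposited table.

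BAFF and APRIL are cytokines that keep B cells and plasma cells alive. The BAFF receptor acts in mature B cells through the noncanonical NF-kB arm, TACI restrains B cell activation and takes part in class switching, and BCMA marks plasmablasts and plasma cells. CD70 on activated lymphocytes engages CD27, TNF signals through TNFRSF1A and TNFRSF1B, and lymphotoxin, made from LTA alone or LTA with LTB, acts through the TNF receptors or LTBR.

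RNA-seq of polyA RNA, which measures transcript levels, and ATAC-seq, which measures open chromatin by transposase insertion, each had 2 wild-type and 2 knockout libraries, described as biological replicates. The deposited tables give a mean over the 4 libraries, a log2 fold change, its standard error (SE) and p-values from DESeq2. The whole reads of each library behind the members were solved from these means, and they are given below divided by the size factors (normalised reads). Reads were not solved for all genes or peaks, so the share of all whose groups did not overlap is not known. Overlap or its absence is therefore given as description only. Within a genotype the libraries carry no replicate number, so they are called the deeper and the shallower library by size factor. RNA size factors were 1.30 and 0.717 in wild type and 1.07 and 1.03 in the knockout, and ATAC size factors were 1.10, 0.944, 1.08 and 0.911. Over 63 genes of the lists used here with a mean of at least 50, the RNA pair differed by a median of 1.17-fold in wild type and 1.05-fold in the knockout. The authors' deposited table lists CD79A and PAX5, markers of B cells, at log2 fold changes of 0.05 and -0.07. Of 10 T and NK cell markers, 8 had no row and the other two summed to 0 to 18.5 normalised reads per library. Myeloid markers with solved reads, 4 of 8, summed to 33.0 to 104, and of 3 tested 0 passed, with CSF1R and CD68 at 4.93 and 2.14 in the authors' deposited table (DESeq2 adjusted p 0.0992 and 0.356). NKG7, the T and NK cell marker tested, had an adjusted p of 0.842. Of the 8 B cell markers, CR2, MS4A1 and BLK were higher and CD79B lower, at 1.13, 1.06, 0.46 and -0.78 in the authors' deposited table, and BLK turned to -0.43 relative to its local ATAC median.

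Of the 7 genes, TNFRSF17 alone passed the threshold, an adjusted p under 0.05, and it was higher in the knockout. Of all 17013 genes tested, 19.2% passed, with 9.89% of those tested higher and 9.28% lower in the knockout. The median log2 fold change was 0.00 over the 3 receptors and 0.04 over the 4 ligands, and 0.02 over all genes tested. In bulk RNA, fewer cells that express a gene and less RNA per cell cannot be told apart.

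**Figure D1:**
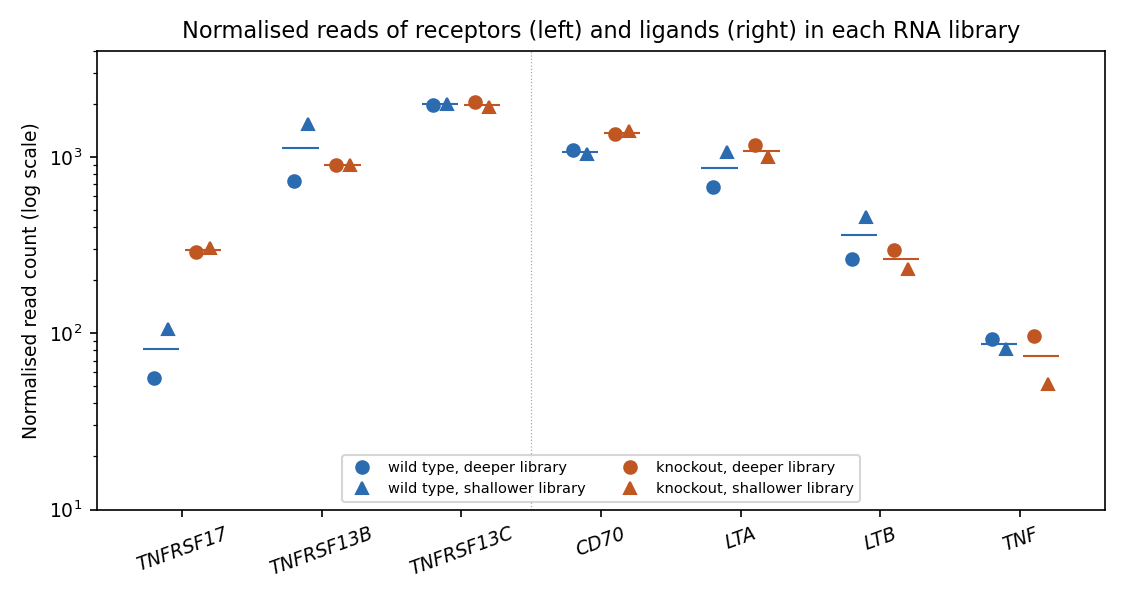
Normalised reads (log scale) of the 7 genes in each RNA library, wild type in blue and knockout in orange, with circles for the deeper and triangles for the shallower library. TNFRSF17 stands at 56.0 and 106 in wild type and 289 and 304 in the knockout. The 2 CD70 values of the knockout also lie above both wild-type values, but CD70 did not pass the threshold.

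TNFRSF17 (ENSG00000048462), the receptor of plasmablasts and plasma cells, lies on chromosome 16 from 11965210 to 11968068 on the plus strand. It had 56.0 and 106 normalised reads in the deeper and shallower wild-type libraries, from 73 and 76 reads, and 289 and 304 in the 2 knockout libraries, from 308 and 313 reads. Both knockout values were above both wild-type values, and the wild-type pair differed 1.89-fold against 1.05-fold in the knockout. The means were 81.0 ± 35.3 in wild type and 297 ± 10.5 in the knockout (SD, n = 2 each). The log2 fold change in the authors' deposited table was 1.89 (SE 0.42, 95% interval 1.08 to 2.71, DESeq2 Wald adjusted p 8.80e-05), or 3.71-fold, at percentile 94.3 of all genes tested. The value was 2.40 without the shallower wild-type library, and between 1.48 and 2.40 with any 1 library left out. The call ended when Wald statistics were divided by their robust SD over all genes (adjusted p 0.124).

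The region around TNFRSF17 moved with it. Within 5 Mb, 36 of 69 genes tested passed the threshold as higher (52.2%) and 0 as lower, and their median log2 fold change was 0.93. Among the 280 ATAC peaks in the same window, leaving out those annotated to TNFRSF17, 214 were higher (76.4%) and 3 lower. Their median log2 fold change was 0.98. That median lay at percentile 98.8 of the same measure over all genes, while the median of chromosome 16 as a whole was -0.05. Relative to the local ATAC median, TNFRSF17 RNA was higher by 0.91 log2 units, 1.88-fold, and no longer passed (adjusted p 0.122). With a window of 1 Mb the difference was 0.82 (adjusted p 0.170). The part of the regional shift in the TNFRSF17 difference, and whether it is a change in copy number, was not tested.

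The ATAC shift was broad and ended about 12 Mb beyond the gene. Before the gene the bins reach the start of the chromosome, so no end was seen on that side. In 1 Mb bins with more than 2 peaks, the ATAC median lay between 0.58 and 1.70 from 12 Mb before the TNFRSF17 start to 12 Mb after it. The bin that begins at the start site had the 1.70, over 33 peaks, and the bin before it had 0.95 over 74 peaks. Between 12 and 13 Mb the ATAC median was 0.34, and between 13 and 14 Mb it was -0.13 over 27 peaks. The RNA medians of these bins did not fall in the same way, at 0.43 over 4 genes and 0.53 over 11 genes.

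**Figure D2:**
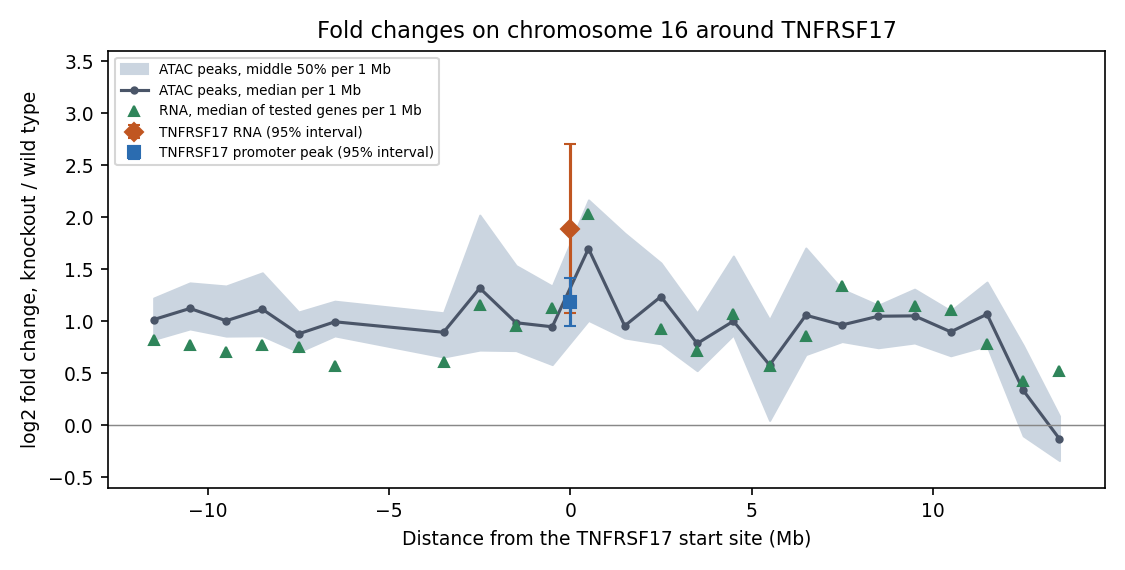
Log2 fold changes (knockout over wild type) against distance from the TNFRSF17 start site in Mb, as ATAC medians with the middle 50% of peaks and RNA medians per 1 Mb bin, with TNFRSF17 RNA and its promoter peak and their 95% intervals. ATAC medians stay above 0.5 up to 12 Mb on either side and reach -0.13 in the last bin, and bins with 1 or 2 peaks, or with fewer than 3 genes for RNA, are not drawn.

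Of 10 listed neighbours of TNFRSF17, 8 were tested, of which 7 were higher and 0 lower (median 1.48), against 9.89% higher of all genes tested. SNX29, a sorting nexin gene that starts 0.01 Mb away, had 625 and 667 normalised reads in wild type against 2980 and 2793 in the knockout. The groups did not overlap, and its log2 fold change was 2.16 in the authors' deposited table (SE 0.18, DESeq2 adjusted p 4.96e-30). Relative to the local ATAC median it was 1.20 and still passed (adjusted p 2.21e-09). ZC3H7A, a zinc finger gene, TXNDC11, a thioredoxin-domain gene, and CIITA, the regulator of MHC class II genes, had 1.63, 1.58 and 1.39 in the authors' deposited table.

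Plasma cell markers also moved in the direction of TNFRSF17. Of 7 listed, 6 were tested, of which 5 were higher and 0 lower (median 1.56), against 9.89% higher of all genes tested. MZB1, named after its value was seen, did not pass, at 0.40 in the authors' deposited table (DESeq2 adjusted p 0.103). IRF4, SLAMF7, PRDM1 and XBP1, of which IRF4, PRDM1 and XBP1 encode transcription factors of plasma cell formation and SLAMF7 a surface receptor, had 3.65, 2.19, 2.29 and 0.93 in the authors' deposited table. The XBP1 call ended in a test against a 1.5-fold change. JCHAIN, the joining chain of secreted antibodies and the most abundant of the list, was at 0.67 in the authors' deposited table, and its reads were not solved. The 6 other markers summed to 6350 and 7166 normalised reads in wild type and 21659 and 21043 in the knockout. IRF4 alone had 725 and 717 of these in wild type and 9327 and 8742 in the knockout, so much of the rise in the sum is from 1 gene. SDC1, the defining surface marker of plasma cells, had 4 reads in the shallower wild-type library and 0 in each of the other 3. Their part in the TNFRSF17 result was not tested.

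Both ATAC peaks of TNFRSF17 were higher in the knockout. The promoter peak, 212 bp before the start site at chromosome 16 from 11964494 to 11965502, had 307 and 347 normalised reads in wild type and 720 and 767 in the knockout. The peak over an exon, 1020 bp after the start at 11965914 to 11966545, had 112 and 94.3 in wild type and 257 and 212 in the knockout. Neither peak's groups overlapped. Their log2 fold changes in the authors' deposited table were 1.19 (SE 0.12, DESeq2 adjusted p 4.20e-22) and 1.19 (SE 0.21, adjusted p 1.76e-07). Relative to the median of peaks within 5 Mb both were 0.20, with adjusted p of 0.190 and 0.504, so neither difference from the region passed.

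TNFRSF13B (ENSG00000240505), which encodes TACI, lies on chromosome 17 from 16929816 to 16972118 on the minus strand. It had 732 normalised reads in the deeper and 1527 in the shallower wild-type library, against 894 and 899 in the knockout. The 2 knockout values fell between the wild-type values, which differed 2.09-fold. The log2 fold change in the authors' deposited table was -0.33 (SE 0.29, 95% interval -0.90 to 0.24, DESeq2 adjusted p 0.510). It was 0.29 without the shallower wild-type library and -0.77 without the deeper one, so its sign rested on which wild-type library was kept. Its exons overlap the pseudogene TBC1D27P and a long noncoding RNA on the same strand, so reads of these genes may not be separable.

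TNFRSF13B had 4 of the 23 peaks, and 1 of these was lower in the knockout. Over all 70312 peaks 35.9% passed, 20.4% higher and 15.5% lower. The peak at the promoter, 31 bp before the start at 16971901 to 16972336, had 229 and 236 normalised reads in wild type and 191 and 236 in the knockout, with a log2 fold change of -0.13 in the authors' deposited table (DESeq2 adjusted p 0.626). The peak 3377 bp upstream, at 16975190 to 16975740, is annotated as the end of another transcript. It had 342 and 335 in wild type against 235 and 199 in the knockout. Both knockout values lay below both wild-type values, and the log2 fold change in the authors' deposited table was -0.64 (SE 0.16, adjusted p 3.32e-04). The peaks in an intron and 1964 bp upstream did not pass, at -0.03 and -0.17 in the authors' deposited table.

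TNFRSF13C (ENSG00000159958), which encodes the BAFF receptor, lies on chromosome 22 from 41922032 to 41926806 on the minus strand. It had 1964 and 2002 normalised reads in wild type and 2039.5 and 1916 in the knockout. The ranges overlapped, and the pairs differed 1.02-fold and 1.06-fold, the narrowest wild-type pair of the 7 genes. The log2 fold change in the authors' deposited table was 0.00 to 2 decimals (SE 0.17, 95% interval -0.34 to 0.34, DESeq2 adjusted p 0.994). Its peak over the start of the gene, at 41925112 to 41927506, had 1174 and 1243 normalised reads in wild type and 1048 and 1249.8 in the knockout, which overlapped. The other peak, 5048 bp upstream, had 286 and 383 in wild type and 370 and 409.7 in the knockout. Their log2 fold changes in the authors' deposited table were -0.07 and 0.22 (DESeq2 adjusted p 0.542 and 0.267).

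CD70 (ENSG00000125726), the ligand of CD27, lies on chromosome 19 from 6583183 to 6604103 on the minus strand. It had 1089.8 and 1045 normalised reads in wild type and 1340.3 and 1408 in the knockout. Both knockout values lay above both wild-type values, and the pairs differed 1.04-fold and 1.05-fold. The log2 fold change in the authors' deposited table was 0.36 (SE 0.19, 95% interval -0.01 to 0.74) with a DESeq2 p of 0.0583 and an adjusted p of 0.189, so it did not pass. With any 1 library left out it lay between 0.33 and 0.40.

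CD70 had 8 of the peaks, the most of any member. Of these 2 were lower and 0 higher, against 15.5% lower and 20.4% higher of all peaks. Distances of the CD70 peaks are from the start in the authors' annotation. That start lies inside the longer GENCODE model of CD70, so the peak called upstream here falls within that model. The peak over its start, annotated as 5' UTR at 6590652 to 6591392, had 786 and 697 normalised reads in wild type and 765 and 776 in the knockout, with a log2 fold change of 0.05 in the authors' deposited table (DESeq2 adjusted p 0.715). The peak 1472 bp upstream, at 6592183 to 6593060, had 543 and 562 in wild type and 459 and 399 in the knockout. The peak 3615 bp into the gene, at 6587182 to 6587888, had 626 and 683 against 521 and 539. In both, every knockout value was below every wild-type value, and the log2 fold changes in the authors' deposited table were -0.36 (SE 0.12, adjusted p 0.00943) and -0.30 (SE 0.11, adjusted p 0.0165). Both calls ended with Benjamini-Yekutieli adjustment (adjusted p 0.111 and 0.194). The CD70 RNA values of the knockout were above wild type, a difference that did not pass, while these peaks were below it. The other 5 peaks ranged from -0.37 to 0.33 in the authors' deposited table, none past the threshold.

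LTA, TNF and LTB lie side by side on chromosome 6 in the MHC region. LTA (ENSG00000226979), the secreted lymphotoxin subunit, spans 31572054 to 31574324 on the plus strand, TNF (ENSG00000232810) 31575565 to 31578336 on the plus strand, and LTB (ENSG00000227507), the membrane-anchoring lymphotoxin subunit, 31580525 to 31582522 on the minus strand. The promoters of this locus are shown because 7 of the 23 peaks lie in or next to it and those at the LTA and TNF promoters moved in opposite directions. RefSeq promoters (GRCh38.p14), each 250 bases before to 50 after a start, were on hand for LTA, LTB, TNF and TNFRSF13B, 4 of the 7 members, in 6 entries. They were searched on both strands for the NF-kB motif, AP-1 (TGANTCA), an interferon regulatory factor motif and the octamer (ATGCAAAT), which 5.91%, 7.71%, 3.57% and 1.77% of 35116 promoters hold. Matches to the NF-kB motif were found at LTA and LTB. They lay 103 to 94 bases before the LTA start at 31572289 and 87 to 78 bases before the LTB start at 31582424. The LTA entry with its start at 31572099 held no match. TNF and TNFRSF13B held none of the 4 motifs in this window, which says only that these letters are not in it. Capitals mark the match, at chr6:31572176-31572205 on the plus strand for LTA and chr6:31582492-31582521 on the minus strand for LTB, and the TNF stretch is chr6:31575315-31575564 on the plus strand, the bases just before its start.
LTA: ctaagccctgGGGGCTTCCCcgggccccag
LTB: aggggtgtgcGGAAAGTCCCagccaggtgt
TNF: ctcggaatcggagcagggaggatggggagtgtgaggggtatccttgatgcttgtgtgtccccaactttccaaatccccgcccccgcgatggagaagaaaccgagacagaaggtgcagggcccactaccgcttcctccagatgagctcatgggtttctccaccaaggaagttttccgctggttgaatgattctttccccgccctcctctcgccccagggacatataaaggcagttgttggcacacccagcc

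LTA had 677 normalised reads in the deeper and 1062 in the shallower wild-type library, against 1168 and 997 in the knockout. The ranges overlapped, since the shallower wild-type library was above 1 knockout library. The log2 fold change in the authors' deposited table was 0.32 (SE 0.25, 95% interval -0.17 to 0.81, DESeq2 adjusted p 0.435), and 0.68 without the shallower wild-type library. TNF, the ligand of both TNF receptors, had 92.9 and 80.9 in wild type and 96.7 and 51.5 in the knockout, from 121, 58, 103 and 53 reads. One knockout library was above and the other below both wild-type libraries. Its log2 fold change in the authors' deposited table was -0.23 (SE 0.57, 95% interval -1.35 to 0.88, adjusted p 0.860), and it ran from -0.76 to 0.15 with any 1 library left out. LTB had 262 and 456 in wild type and 297 and 231 in the knockout, which overlapped. Its log2 fold change in the authors' deposited table was -0.44 (SE 0.35, 95% interval -1.13 to 0.25, adjusted p 0.449), and 0.01 without the shallower wild-type library.

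**Figure D3:**
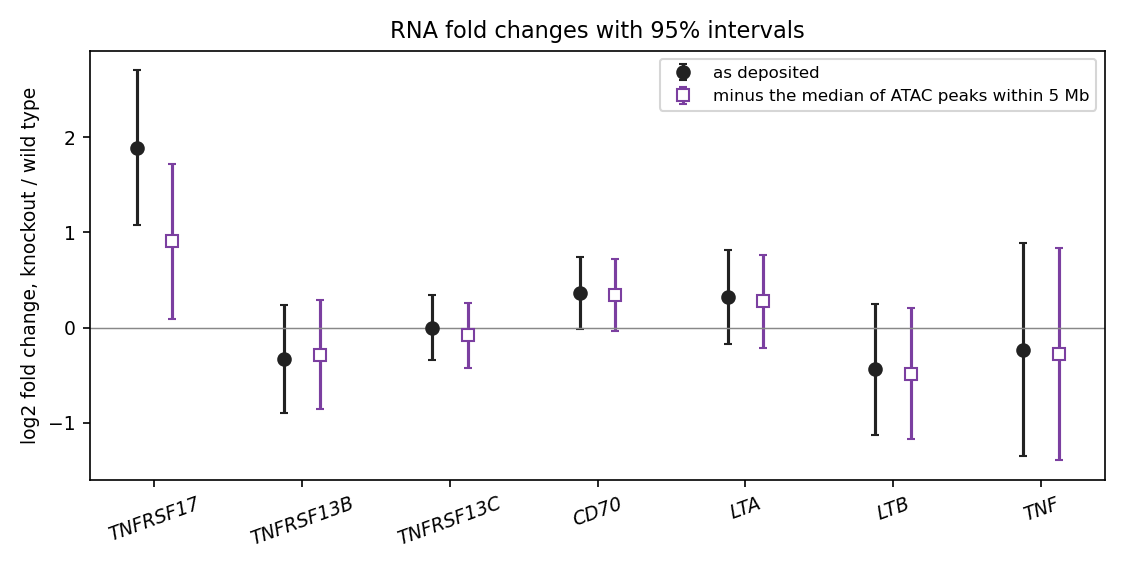
Log2 fold changes of the 7 genes (knockout over wild type) with 95% intervals, beside the value after subtracting the median of ATAC peaks within 5 Mb. Of the 7 intervals computed from the deposited SE, that of TNFRSF17 alone, 1.08 to 2.71, leaves out 0, with no adjustment for the number of genes tested.

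At LTA 3 of 4 peaks were higher in the knockout and none was lower, against 20.4% higher and 15.5% lower of all peaks. All LTA peaks but the promoter peak are annotated to an exon or intron of a noncoding transcript, though listed under LTA. The promoter peak, at 31571859 to 31572874, had 842 and 746 normalised reads in wild type and 928 and 945 in the knockout. The upstream peaks at 31568568 to 31568937 and 31562587 to 31563015 had 279.6 and 302 against 423 and 395, and 139 and 192 against 248 and 227. In all 3 the knockout values were above both wild-type values. The log2 fold changes in the authors' deposited table were 0.24 (SE 0.09, DESeq2 adjusted p 0.0308), 0.50 (SE 0.14, adjusted p 0.00173) and 0.53 (SE 0.20, adjusted p 0.0216). The promoter call ended when the local ATAC median was subtracted (0.19, adjusted p 0.0951), and its value was 0.15 without the shallower wild-type library. The peak farthest upstream of the 3 was at 0.31 without the deeper wild-type library and 0.78 without the shallower one. With Benjamini-Yekutieli adjustment the promoter peak and that farthest peak no longer passed (adjusted p 0.362 and 0.253). The fourth peak, 11924 bp upstream, had -0.14 in the authors' deposited table (adjusted p 0.168).

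The TNF promoter peak moved the other way. It lies at 31575361 to 31575870 and had 289 and 245 normalised reads in wild type and 167 and 157 in the knockout, with no overlap. The log2 fold change in the authors' deposited table was -0.72 (SE 0.18, DESeq2 adjusted p 4.02e-04), and -0.76 after subtracting the local ATAC median, still past the threshold. It is the only peak annotated to TNF. The peaks at the LTB start and 1383 bp into LTB were listed at 0.12 and -0.11 on the log2 scale in the authors' deposited table (adjusted p 0.404 and 0.590), and the start peak had 561 and 575 normalised reads in wild type and 613 and 621 in the knockout. Of 9 listed genes next to this locus, 8 were tested and 0 passed, and the authors' deposited table lists DDX39B, an RNA helicase gene, at 0.34 and ATP6V1G2, which encodes a proton pump subunit, at -1.68 (adjusted p 0.0993 and 0.0731).

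Of all 23 peaks 9 passed, 5 higher and 4 lower in the knockout, and 14 did not, so 39.1% passed against 35.9% of all peaks. Their median log2 fold change was -0.06, and -0.01 over all peaks. Of the 4 peaks annotated to a promoter, 2 were higher (TNFRSF17 and LTA), 1 lower (TNF) and 1 did not pass (TNFRSF13B). Of all 8420 promoter peaks 34.2% passed, 14.2% higher and 20% lower. The 2 TNFRSF17 peaks passed with a difference of at least 1 log2 unit, as did 11% of all peaks in the higher and 5.79% in the lower direction. In a test against a 1.5-fold change these 2 remained, and with Wald statistics divided by their robust SD 1 remained, the TNFRSF17 promoter peak.

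**Figure D4:**
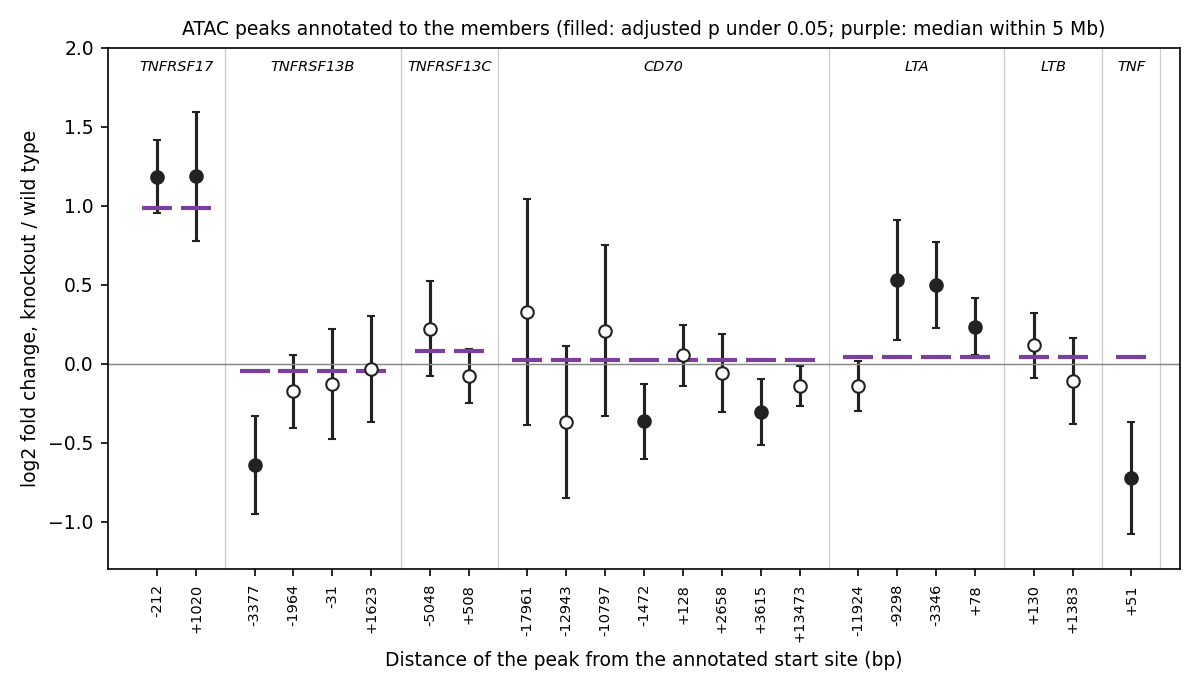
Log2 fold changes (knockout over wild type) with 95% intervals of the 23 ATAC peaks, ordered by gene and labelled by distance from the annotated start in bp, with purple marks for the median within 5 Mb. The TNFRSF17 peaks, both at 1.19, sit near their regional median of 0.98, and the TNF promoter peak at -0.72 is the lowest.

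Levels per length placed CD70 at the top. In normalised reads per kb of exon over the 4 libraries, CD70 ranged from 683 to 920, LTA from 390 to 672, TNFRSF13C from 488 to 520, TNFRSF13B from 206 to 430, LTB from 151 to 297, TNFRSF17 from 55.2 to 299 and TNF from 30.7 to 57.6. The range of CD70 lay above that of LTA, and that of TNFRSF13C above that of TNFRSF13B. The other neighbours in this order overlapped in range. TNFRSF17 was at 55.2 and 104 per kb in wild type and at 285 and 299 in the knockout. Its wild-type values lay below every value of LTB and TNFRSF13B, and its knockout values above those of both genes in the knockout.

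Among the binding partners of the members, 3 of 4 tested passed, 1 higher and 2 lower, against 19.2% of all genes tested. CD27, the receptor of CD70, had 2820 and 3872 normalised reads in wild type and 1575 and 1607 in the knockout, with no overlap. Its log2 fold change was -1.07 in the authors' deposited table (SE 0.20, DESeq2 adjusted p 1.23e-06). Relative to its local ATAC median of -0.28, CD27 was at -0.79 and still passed (Wald adjusted p 8.84e-04). TNFRSF1B, a receptor of TNF and lymphotoxin, had 237 and 399 in wild type and 109 and 97.1 in the knockout, and -1.62 in the authors' deposited table (SE 0.39, adjusted p 4.51e-04). Both receptors were lower in each knockout library than in either wild-type library. TNFRSF14, a receptor shared by LIGHT and lymphotoxin, had 519 and 551 in wild type and 944 and 913 in the knockout, and 0.80 in the authors' deposited table (SE 0.22, adjusted p 0.00312). TNFRSF1A, the other TNF receptor, was low, at 6.91 and 22.3 in wild type and 2.82 and 4.86 in the knockout (DESeq2 adjusted p 0.469). The cytokine genes TNFSF13 (APRIL) and TNFSF13B (BAFF) carry no adjusted p in the authors' deposited table, with means of 4.03 and 2.47. LTBR had no row. All 3 calls ended in a test against a 1.5-fold change, and those of TNFRSF1B and TNFRSF14 also with scaled Wald statistics.

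Of other TNF family receptors, 5 of 10 tested were higher and 0 lower (median 0.85), against 9.89% higher and 9.28% lower of all genes tested. TNFRSF9, the costimulatory receptor 4-1BB, had 197 and 158 normalised reads in wild type and 1399 and 1335 in the knockout, and 2.94 in the authors' deposited table (SE 0.24, DESeq2 adjusted p 8.02e-33). CD40, the receptor for T cell help, had 1417 and 1434 against 3282 and 3200, and 1.19 in the authors' deposited table (adjusted p 1.29e-10). Neither gene's groups overlapped. The death receptors FAS and TNFRSF10B had 0.78 and 0.93 in the authors' deposited table, calls that ended in a test against a 1.5-fold change. TNFRSF10B was at 0.07 relative to its local ATAC median. TNFRSF10A, also on chromosome 8 and named after its value was seen, was at 0.28 in the authors' deposited table (DESeq2 adjusted p 0.332). Relative to its local ATAC median TNFRSF10A was at -0.59 and passed as lower (Wald adjusted p 0.0144). TNFRSF21, a death-domain receptor named after its value was seen, was listed at 1.26 in the authors' deposited table (DESeq2 adjusted p 0.0435). Of other ligands 1 of 5 tested passed, or 20%, against 19.2% of all genes tested. TNFSF15, which encodes TL1A, fell from 128 and 107 normalised reads to 2.82 and 4.86, from 167 and 77 reads to 3 and 5, with -4.95 in the authors' deposited table (SE 0.80, DESeq2 adjusted p 2.07e-08).

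The signalling arm below the receptors changed in some adaptors. Of 15 TRAF adaptors and receptor kinases tested, 3 were higher and 2 lower, or 33.3%, against 19.2% of all genes tested. TRAF1, an adaptor of TNF receptors, BIRC3, a ubiquitin ligase of the same complexes, and TANK, a TRAF-binding adaptor, had 1.59, 0.84 and 0.72 in the authors' deposited table (DESeq2 adjusted p 2.15e-18, 4.91e-08 and 5.96e-04). TRAF3IP3, which encodes a TRAF3-interacting protein, had 695 and 815 normalised reads in wild type and 229 and 223 in the knockout, and -1.74 in the authors' deposited table (adjusted p 1.18e-09). TRAF2, named after its value was seen, was listed at -0.77 in the authors' deposited table (DESeq2 adjusted p 0.00824). The calls of BIRC3 and TANK ended in a test against a 1.5-fold change. None of the 4 genes of the noncanonical NF-kB arm passed, and the authors' deposited table lists NFKB2, its precursor subunit, at 0.47 (adjusted p 0.0647) and MAP3K14, its kinase, at -0.25 (adjusted p 0.442). NFKB2 passed, at an adjusted p of 0.0473, when only genes with a mean of at least 100 were adjusted.

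Of 12 genes listed for the steps that cut TNF family proteins from the cell surface or follow that cut, 2 were higher and 0 lower. That is 16.7%, against 19.2% of all genes tested. PSEN2, a catalytic subunit of gamma-secretase, which cuts BCMA, had 29.2 and 9.76 normalised reads in wild type and 259 and 226 in the knockout, and 3.57 in the authors' deposited table (SE 0.53, DESeq2 adjusted p 9.36e-10). SPPL2A, an intramembrane protease that acts on TNF, had 1641 and 1000 against 2632 and 2344, and 0.91 in the authors' deposited table (SE 0.23, adjusted p 9.79e-04), a call that ended in a test against a 1.5-fold change. The groups of neither enzyme overlapped. Over the 50 pathway genes tested other than the members, 11 were higher and 5 lower, or 32.0%, against 19.2% of all genes. Their median log2 fold change was 0.20. The median of their mean counts was 995, against 337 over all genes tested, so the 2 shares are not of genes at like levels. The lists were chosen with earlier results of these data known. Of the 16 pathway genes that passed, TNFSF15, TNFRSF9, CD40, TRAF1, TRAF3IP3 and PSEN2 also passed in a test against a 1.5-fold change. With scaled Wald statistics CD27 and BIRC3 passed besides these 6.

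**Figure D5:**
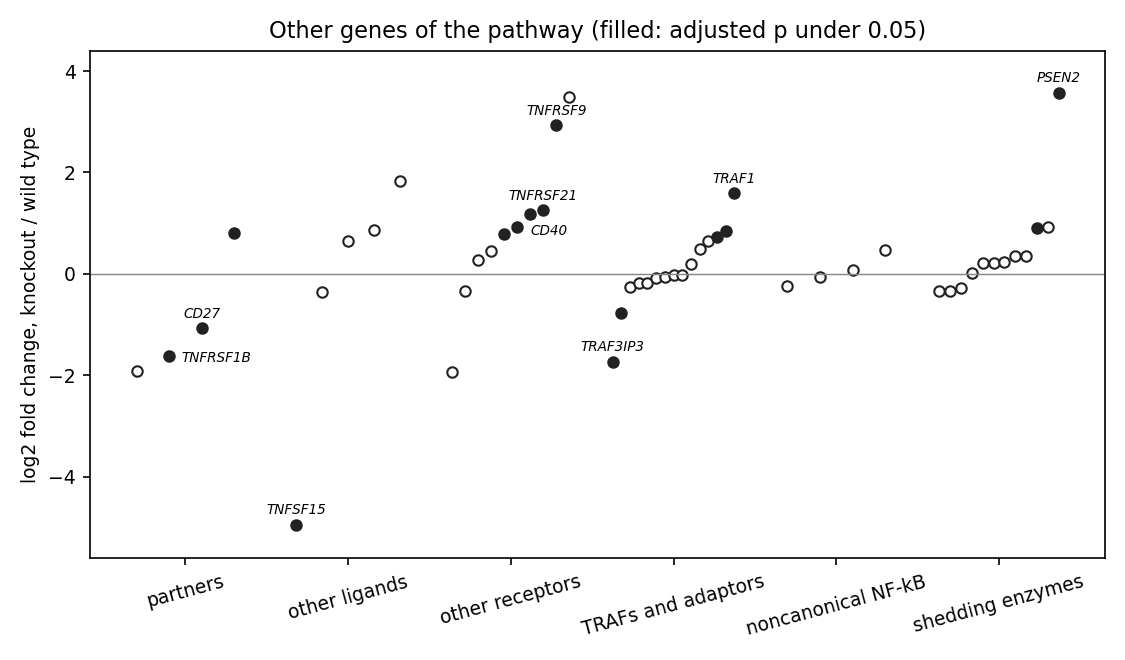
Log2 fold changes (knockout over wild type) of the tested pathway genes by list, filled where the adjusted p was under 0.05, with names for filled points beyond 1 log2 unit. PSEN2 at 3.57 and TNFRSF9 at 2.94 are the highest filled points and TNFSF15 at -4.95 is the lowest.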

How the data were processed

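RNA-seq and ATAC-seq were measured in 8 samples, 2 per genotype and assay. The submitters' processing notes name Trim Galore, Trimmomatic, cutadapt, STAR, featureCounts, Bowtie2, HOMER and DESeq2 with GRCh38 or hg38. Tool versions and the peak caller: not given in the sources used here. DESeq2 results were deposited, per the file headers, in which the signal of a gene or peak is the mean over 4 libraries of reads divided by size factors. The authors deposited the log2 fold change with its SE (log2), the Wald score, and the two-sided p-value beside its Benjamini-Hochberg adjusted p. Distances to the nearest start site, another unit, are in bp in the deposited ATAC table.

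The deposited Wald results were the test, with an adjusted p under 0.05 as threshold. The tables do not say which genotype is the numerator. Positive values were read as higher in the knockout, because the peak on chromosome 1 from 192609102 to 192609836, inside the labelled interval, had 679 and 592 reads in one pair of libraries and 0 in both others. The noncoding RNA ENSG00000289995 of that interval had 44 and 2 RNA reads in the pair so read as wild type and 0 in the others, while RGS1, also inside it, was higher in the pair read as knockout. Under the opposite coding every direction here would turn.

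Reads per library were solved from the deposited means in Python 3.11.15 (numpy 2.4.6, scipy 1.17.1, pandas 2.3.3, sympy 1.14.0), and figures drawn with matplotlib 3.10.9. RNA size factors were read from genes with a mean of 1 read in 1 library: the means of all 3772 genes below 0.75 were whole-read sums to within 1e-12. ATAC size factors came from whole-number relations among the 250 lowest peak means (largest misfit 6.04e-14). A set of reads was kept where it gave the mean within a relative 2e-14 and a negative binomial refit returned the deposited fold change. Where 1 genotype had 0 reads, no refit was made and a set was kept if it alone gave the mean. SDC1, ENSG00000289995 and the chromosome 1 peak used for the sign were such cases. For 6 of 7 genes and 22 of 23 peaks the mean alone fixed the set, and for the others the refit did; the largest difference of a refit was 1.12e-06. Of 108 genes tried 91 gave 1 set, and the steps were tested on simulated data. Total reads per library were not solved; the RNA table sums to 3.28e+07 mean normalised reads and the ATAC table to 1.99e+07.

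The members and gene lists were chosen with earlier results of these data known. The rule for names took all members and partners, and of each other list up to 4 genes with the smallest adjusted p past the threshold, or 2 where none passed. CD79A, PAX5, SDC1, JCHAIN, MZB1, TNFRSF10A, TNFRSF21, TRAF2, RGS1 and RGS13 were named besides, after their values were seen. Gene positions and exon lengths are from GENCODE 44. Alternatives were a test against a 1.5-fold change, Wald statistics divided by their robust SD (1.70 for RNA, 2.46 for ATAC), centring on the median of all genes or peaks with a mean of at least 100 or on the ATAC median within 5 or 1 Mb, Benjamini-Yekutieli adjustment, other filters, and each library left out (value with no test).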

Additional observations from a re-analysis of the deposited data

How the results depend on the processing

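With Wald statistics divided by their robust SD, and with centring on the ATAC median within 5 Mb or within 1 Mb, 0 of the 7 genes passed, and TNFRSF17 had 1.89, 0.91 and 0.82 (adjusted p 0.124, 0.122 and 0.170). Against a 1.5-fold change and with scaled statistics, 6 (4 higher, 2 lower) and 8 (5 and 3) pathway genes passed, 2 and 1 member peaks, 671 (394 higher, 277 lower) and 670 (401 and 269) of all genes, and 6149 (4346 higher, 1803 lower) and 2375 (1597 and 778) of all peaks. With Benjamini-Yekutieli adjustment 5 member peaks, 1880 genes and 16397 peaks passed, and with promoter peaks alone 3 member peaks. After subtracting the ATAC median within 5 Mb, 17 pathway genes passed, 11 higher and 6 lower. Centring on the median of all genes with a mean of at least 100 turned TNFRSF13C to 0.0054. Local centring within 5 and 1 Mb turned the TNFRSF13B peak at 1623 bp to 0.011 and 0.091, and BLK, a B cell kinase gene at 0.46 (adjusted p 0.0341) in the authors' deposited table, to -0.43 and -0.32. Leaving out each library in turn gave 1.48 to 2.40 for TNFRSF17, -0.77 to 0.29 for TNFRSF13B, 0.028 to 0.68 for LTA, -0.79 to 0.0078 for LTB and -0.76 to 0.15 for TNF. Of the values of single member peaks under these alternatives 214 kept direction and side of the threshold or stayed within the spread of replicates. A further 25 lost the call, 2 gained it, 8 moved and 2 turned under local centring. Signs that turned with a library left out were counted as moved or, within that spread, as kept. Without the deeper wild-type library the TNFRSF13B peak at 1623 bp was at 0.15. Without the deeper knockout library the CD70 peak 10797 bp upstream was at -0.084. No paired analysis was possible because the solved libraries carry no replicate number. With 2 libraries per genotype and 51.5 to 96.7 normalised reads, the 95% interval of TNF spanned -1.35 to 0.88.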
